A study of Mus musculus with 12 samples.

Results

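The arrays carry 8 oligos whose sequence encodes the end of framework 3 of an antibody light-chain variable (V) region, among 35852 oligos in all. They were found by a sequence pattern, which was chosen with earlier results of these data known. An oligo was taken where 1 of its 3 forward reading frames, free of stop codons, encoded a tyrosine, a tyrosine or phenylalanine, the cysteine that ends framework 3, any residue and a glutamine, in that order. The residue before the first tyrosine had to be one of those usual there, such as threonine, valine or aspartate. The reverse strand gave 0 matches. The files do not tie these oligos to genes or to genome positions, so each is given by its identifier, and nothing but the sequence shows that it reads a light chain.

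Total RNA of whole spleen was measured, 1 sample per array. There were 3 samples of 564 Igi mice aged 4 months, 3 aged 8 months and 4 aged 12 months, and 2 of C57BL/6 mice aged 4 months, all from females. The 564 Igi strain has antibody genes that are already rearranged, inserted at its heavy-chain and its light-chain locus on a C57BL/6 background. The genotype label reads 564+/-, but the treatment text says that animals homozygous at both loci (564+/+) were used, and the data do not settle this. Some of the 564+/+ colony drank water with Ampicillin, Metronidazole, Neomycin and Vancomycin, and the text does not say whether any of these samples came from it. All mice were kept free of specific pathogens. No label says that each sample is a separate animal, so a p-value here measures only the spread between these samples.

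A light chain is made from a V segment joined to a J segment and followed by a constant region. Most mouse light chains are of the kappa type, whose locus holds many V segments, and a B cell usually expresses a single joined light chain. Framework 3 ends at a conserved cysteine that forms a disulfide bond inside the V domain, and the residues after it begin the third complementarity-determining region (CDR3), a loop that contacts antigen. In a segment that has not been joined, the coding part is followed by a recombination signal that starts with the heptamer CACAGTG.

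The sequences below are those of the 4 oligos with the largest fall at 4 months and of the 2 with the smallest change, 5′ to 3′. Capitals mark the codons of the pattern, and the bases right after them read into CDR3.
M400001209: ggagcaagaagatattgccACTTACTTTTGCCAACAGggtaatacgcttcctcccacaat
M400009428: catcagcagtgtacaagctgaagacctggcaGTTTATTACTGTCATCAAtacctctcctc
M400004200: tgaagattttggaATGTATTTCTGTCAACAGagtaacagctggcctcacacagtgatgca
M400008289: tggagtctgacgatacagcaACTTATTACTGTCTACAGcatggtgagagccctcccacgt
M400003662: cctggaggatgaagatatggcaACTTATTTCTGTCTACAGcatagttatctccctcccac
M400005657: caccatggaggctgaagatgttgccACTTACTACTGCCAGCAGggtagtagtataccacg

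Over all 8 oligos, the residue after the cysteine was glutamine in 4, leucine in 3 and histidine in 1. The residue before it was phenylalanine in 5 and tyrosine in 3. Between 17 and 35 bases followed the cysteine codon, so the oligos reach to different distances past it. Their GC content lay between 41.7% and 51.7%, and the median over all oligos was 48.3%. The heptamer CACAGTG, searched on both strands, was in M400004200 alone, from base 49 of the printed strand. On that strand 0.915% of all oligos hold it, and on either strand 1.84%. If the heptamer in M400004200 is a recombination signal, the bases from there on lie outside CDR3, which was not tested.

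Each oligo has 1 spot per array. Values are log2 of Cy3, the spleen RNA, over Cy5, the same universal reference RNA on every array. An added offset keeps dim spots near 0, so the fold change of a dim spot is understated. The share of oligos with Cy3 well above background was 69.4% to 75.9% on 11 of the arrays. On 564 Igi 4 months replicate 1 it was 91.2%. The number of arrays limits the precision. Slide 1 held only 564 Igi arrays, and the C57BL/6 arrays were spread over slides 2 and 3, with 3 of 564 Igi on each. Both C57BL/6 arrays lay at position 4 of their slide, as did 564 Igi 12 months replicate 1.

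At 4 months, the only age measured in both strains, 6 of the 8 oligos were lower in 564 Igi than in C57BL/6 and 0 were higher (limma, Benjamini-Hochberg adjusted p under 0.05). Over all 26279 oligos tested, 0.339% were called lower and 0.0685% higher. The largest fall of the ratio was 12.4-fold, in M400001209, and the smallest were 3.77-fold in M400004552 and 3.47-fold in M400002441. M400002441 was too dim in 564 Igi for a measured fold, and by its scaled Cy3 level it was at least 3.64-fold lower. M400003662 and M400005657 did not pass. The median log2 fold change of the 8, from the ratios, was -2.38, and the median over all oligos tested was 0.0095. All 8 passed the filter on low signal, but 4 of them did so only through C57BL/6. The filter thus favours oligos that are higher in C57BL/6, so the count and median are a description. In whole spleen, fewer cells with such a transcript and less of it per cell cannot be told apart.

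M400001209 had log2 ratios of 3.26 and 4.11 on the C57BL/6 arrays and of 0.016, 0.12 and 0.013 on the 564 Igi arrays of 4 months. The 8-month arrays gave 0.082, 0.070 and 0.16, and the 12-month arrays -0.11, -0.010, 0.087 and 0.21. Every 564 Igi array lay far below both C57BL/6 arrays. The mean was 3.68 ± 0.60 (SD, n = 2) in C57BL/6 and 0.050 ± 0.061 (n = 3) at 4 months. The log2 difference was -3.63 (SE 0.19, 12.4-fold lower, limma adjusted p = 6.8e-07). Its Cy3 brightness, on the scanner's linear scale, was 1429 and 1896 in C57BL/6 and 57.8 to 120 over the 10 arrays of 564 Igi, 7 of which were well above background.

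In M400009428, whose cysteine is followed by a histidine, the ratios were -1.17 and -1.47 in C57BL/6 and -4.84, -4.92 and -5.01 in 564 Igi at 4 months. They were -4.69, -4.78 and -5.70 at 8 months and -4.83, -4.74, -5.17 and -5.11 at 12 months. The groups did not come near each other, and the low array in the 8-month group was replicate 3. At 4 months the log2 fold change was -3.61 (SE 0.25, 12.2-fold lower, limma adjusted p = 1.08e-05), from -1.32 ± 0.21 (n = 2) to -4.92 ± 0.083 (n = 3). This is the called oligo with signal left in 564 Igi on every array. Its Cy3 brightness there was 176 to 274, against 2280 and 2416 in C57BL/6, and both channels were well above background on all 12 arrays. Its Cy5 brightness, 5562 to 13886, was above that of Cy3 on every array, so all its ratios lie below 0.

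M400004200, the oligo with the heptamer, read 3.01 and 3.71 in C57BL/6. In 564 Igi it read -0.0083, 0.10 and -0.10 at 4 months, 0.15, -0.15 and -0.038 at 8 months, and 0.15, 0.073, -0.097 and 0.029 at 12 months. The 564 Igi ratios scatter around 0, and neither channel was bright there. Cy3 brightness was 862 and 987 in C57BL/6 and 52.8 to 76.6 in 564 Igi, where 1 of 10 arrays, 4 months replicate 1, was well above background. The fall at 4 months was -3.36 on the log2 scale (SE 0.18, 10.3-fold lower, limma adjusted p = 6.78e-07).

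For M400008289, with a leucine after the cysteine, C57BL/6 gave 2.08 and 3.30, the widest gap between the C57BL/6 arrays among the 8 oligos. The 4-month arrays gave -0.055, -0.32 and -0.11, the 8-month arrays -0.29, -0.24 and 0.10, and the 12-month arrays 0.10, -0.27, -0.075 and -0.14. Even the lower C57BL/6 array stood well clear of the highest 564 Igi array. The log2 fold change at 4 months was -2.85 (SE 0.27, 7.21-fold lower, limma adjusted p = 0.000186). Without C57BL/6 replicate 1 it was -3.46 (11.0-fold) and without replicate 2 it was -2.24 (4.73-fold), with the lone C57BL/6 array assumed to vary like the other groups, and the oligo was called in both. Cy3 brightness was 654 and 1273 in C57BL/6 and 53.8 to 102 in 564 Igi, with 4 of 10 arrays well above background.

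M400004552 and M400002441 were the called oligos with the smallest falls. M400004552 had ratios of 1.69 and 1.99 in C57BL/6, then -0.063, -0.095 and -0.060 at 4 months, -0.074, -0.21 and -0.15 at 8 months, and -0.13, -0.13, 0.030 and -0.21 at 12 months. Its fall at 4 months was -1.91 on the log2 scale (SE 0.11, 3.77-fold lower, limma adjusted p = 1.36e-06). Cy3 brightness of M400004552 was 246 and 243 in C57BL/6 and 50.8 to 76.2 in 564 Igi. There 1 of 10 arrays, 4 months replicate 1, was well above background, so this fold rests on signal near background. M400002441 had 1.27 and 1.66 in C57BL/6, then -0.19, -0.21 and -0.58 at 4 months, -0.027, -0.49 and -0.35 at 8 months, and -0.099, -0.31, -0.40 and -0.29 at 12 months. In both oligos all 564 Igi arrays lay below both C57BL/6 arrays.

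On no array of 564 Igi was M400002441 well above background, so its level there has only a bound. It was at least 3.64-fold lower at 4 months, and the fit gave -1.79 (SE 0.17, limma adjusted p = 0.000195). Such a bound sets the C57BL/6 mean against, on each 564 Igi array, the lowest signal that counts as well above background or the spot's own where that is higher, after scaling between arrays. Its Cy3 brightness was 208 and 199 in C57BL/6 and 48.9 to 56.8 in 564 Igi, and the Cy3 background around the 8 oligos' spots lay between 22 and 39. With the scanner's own processed ratios, neither M400002441 (adjusted p = 0.261) nor M400004552 (adjusted p = 0.0659) passed at 4 months in limma, though the log2 fold changes were larger, at -4.61 and -3.70.

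M400003662 had ratios of 0.14 and 0.17 in C57BL/6, and of -0.23, -0.13 and -0.087 in 564 Igi at 4 months. At 8 months it read -0.20, -0.077 and -0.073, and at 12 months 0.071, -0.28, -0.24 and -0.25. All 10 arrays of 564 Igi lay below both of C57BL/6, but by little. The log2 fold change at 4 months was -0.30 (SE 0.11, 95% interval -0.55 to -0.053), which did not pass (limma adjusted p = 0.314). It was well above background on every array, with a Cy3 brightness of 162 and 236 in C57BL/6 and 104 to 248 in 564 Igi, ranges that overlap.

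M400005657 was well above background in Cy3 on all 12 arrays. Its ratios were 3.52 and 4.28 in C57BL/6, 4.18, 4.36 and 4.46 at 4 months, 4.69 and 4.97 at 8 months, and 4.25, 4.65, 4.64 and 5.03 at 12 months. The spot on 564 Igi 8 months replicate 2 had an uneven background and was left out. The 4-month arrays overlap with C57BL/6. The log2 fold change at 4 months was 0.43 (SE 0.24, 95% interval -0.10 to 0.97, limma adjusted p = 0.487), and with the scanner's processed ratios it was -0.080, so the ratio gives no direction.

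The channels of this spot, taken one at a time, differed between the strains. Cy3 brightness of M400005657 was 1270 and 1979 in C57BL/6 and 4858 to 11630.5 on the 9 arrays of 564 Igi with an even spot. Cy5 brightness, from the same reference RNA, was 106 and 144 in C57BL/6 and 172 to 617 on those 9 arrays, so it moved with Cy3 and made the ratio smaller than the change in Cy3. With the sample channel alone, its log2 fold change was 1.94 at 4 months (adjusted p = 0.12), 2.36 at 8 months (adjusted p = 0.0498) and 2.35 at 12 months (adjusted p = 0.0153) in limma. What raised the Cy5 signal there was not tested.

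Cy5 also moved with Cy3 in 3 oligos that fell. In M400001209, M400004200 and M400008289, both C57BL/6 arrays had more Cy5 signal than any 564 Igi array, at 139 and 153 against at most 123 in M400001209. With the sample channel alone, these falls at 4 months were -4.47, -3.86 and -3.63 on the log2 scale, each larger than from the ratio. In M400009428, where Cy5 was strong, the value was -3.60, close to that of the ratio. The source of this Cy5 signal was not tested.

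Within slide 2, which held 1 array of each 4-month group, the log2 differences were -3.24 for M400001209, -3.84 for M400009428 and -3.11 for M400004200. They were -2.19 for M400008289, -1.75 for M400004552 and -1.85 for M400002441. M400003662 differed by -0.22 and M400005657 by 0.94. Each of the 8 differences had the sign of the fit over all slides, with 1 array per strain and no test. The 564 Igi array that shared position 4 with C57BL/6 was 12 months replicate 1. Of the 564 Igi arrays it was the lowest in M400001209 (-0.11) and the highest in M400004200 (0.15) and M400003662 (0.071), and in the other 5 oligos it lay within the range of the rest. In M400003662 it was the 564 Igi array nearest to C57BL/6.

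The older 564 Igi groups were set against the same C57BL/6 arrays of 4 months, so strain and age cannot be told apart in them and the 3 comparisons share their controls. At 8 months 6 of the 8 oligos were lower and 0 higher, where 0.495% and 0.129% of all oligos tested were called (limma adjusted p under 0.05). At 12 months 6 were again lower and 0 higher, where 0.586% and 0.320% were called. The 6 were M400001209, M400009428, M400004200, M400008289, M400004552 and M400002441 each time. These counts too are a description, as 4 of the 6 passed the filter only through C57BL/6.

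M400001209 differed by -3.58 at 8 months and by -3.64 at 12 months on the log2 scale, and M400009428 by -3.74 and -3.65. M400008289 differed by -2.83 and -2.78, which became -3.44 and -3.39 without C57BL/6 replicate 1 and -2.22 and -2.17 without replicate 2. Among these 3 the limma adjusted p ranged from 3.58e-07 to 0.000187. The others that fell were not well above background on any array of 8 or 12 months. The fitted ratio of M400004200 was -3.37 at 8 months and -3.32 at 12 months, against -3.36 at 4 months. Those of M400004552 were -1.99 and -1.95, and those of M400002441 -1.75 and -1.74. The bounds come from the Cy3 level after scaling that used both channels, and are not comparable with a fold from the ratio. By them, M400004200 was at least 14.7-fold lower at 8 months and at least 14.8-fold lower at 12 months, M400004552 at least 4.15-fold and 3.86-fold lower, and M400002441 at least 3.63-fold and 3.49-fold lower. Their limma adjusted p ranged from 3.58e-07 to 0.000229.

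M400003662 stood at -0.27 (adjusted p = 0.315) and -0.33 (adjusted p = 0.237), and M400005657 at 0.93 (adjusted p = 0.174) and 0.74 (adjusted p = 0.216) in limma. For M400005657 the 8-month value rests on 2 arrays, and with the uneven spot kept it was -0.18. It passed at 8 months with median centring (1.04, adjusted p = 0.0347) and with the sample channel alone. Over all ages, 7 of the 8 oligos had every 564 Igi array below both C57BL/6 arrays, against 5.33% of all oligos tested. The exception was M400005657. Of the 7, 4 passed the filter on low signal only through C57BL/6, which favours oligos that are higher there, so this count is a description.

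Within 564 Igi, no oligo of the 8 passed between 4 and 8 months, 4 and 12 months, 8 and 12 months or in the moderated F test over the 3 ages (limma adjusted p under 0.05). Over all oligos tested 0%, 0.00381%, 0% and 0.00381% were called. An unadjusted p under 0.05 was found for 0 of the 8 in each of these tests. In the comparisons between ages it was found for 826, 2007 and 1109 of the 26279 oligos tested, so 0 of 8 does not set these oligos apart. The median log2 differences of the 8 were 0.028, 0.018 and 0.023. M400005657 had the smallest p in each, with 0.50 at 8 against 4 months (95% interval -0.036 to 1.03), 0.31 at 12 against 4 months (-0.14 to 0.75) and -0.19 at 12 against 8 months (-0.70 to 0.32). Each interval includes 0. For the dim oligos a further fall could not be measured, since their spots were already near background.

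The 8 oligos are related in sequence to different degrees. Over the 28 pairs, the best ungapped alignment had 41.7% to 83.3% identical bases, with a median of 63.1%. The closest pair, M400002441 and M400004552, was 83.3% identical over 54 bases with a shared run of 26 bases and cannot count as independent. Both fell, with log2 values of -1.79 and -1.91 at 4 months. M400003662 and M400008289 were 81.0% identical over 58 bases, with no shared run over 13 bases. They had log2 fold changes of -0.30 and -2.85 at 4 months, whose 95% intervals (-0.55 to -0.053 and -3.44 to -2.26) do not meet. M400001209 and M400005657 were 74.1% identical over 54 bases, and their values were -3.63 and 0.43. Of the residues after the cysteine, both glutamine and leucine occurred in oligos that fell and in one that did not pass.

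Other light-chain patterns were searched in the same way. Of 4 oligos in the middle of framework 3, 3 were lower at 4 months, 0 were higher and 1 did not pass, with a median log2 fold change of -2.92. Of 11 at the start of framework 1, 6 were lower, 1 was higher and 4 did not pass (median -1.90). Of 8 with the J segment pattern, which follows V in a joined gene, 4 were lower, 0 were higher and 4 did not pass (median -2.15). Framework 2 had 0 of 6 lower, 4 higher and 2 that did not pass (median 2.11). With uneven spots kept, 0 of the 6 were higher (median 1.78), and with the scanner's processed ratios 2 were higher and 1 lower. With an offset of 16, median centring or the sample channel alone, 4 or 5 were higher. Other lists also moved. Framework 1 had 5 lower and 0 higher with uneven spots kept, and 4 and 0 with the processed ratios. The framework 3 middle had 2 lower in both. The median of the framework 3 end oligos, -2.38, lay between those of the framework 3 middle and the J segment, and the lists were not tested against each other. The medians of these lists kept their sign under each of 5 other ways to correct the background or scale the arrays.

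The kappa constant region, which every kappa light chain carries whatever its V segment, was read by 2 oligos. M400009426 stood at 1.59 (limma adjusted p = 0.173) and M400010430 at 1.24 (adjusted p = 0.26) at 4 months on the log2 scale. At 12 months both were higher, by 2.27 (adjusted p = 0.0164) and 1.90 (adjusted p = 0.0445) in limma, but neither passed with median centring. The 2 oligos at the end of heavy-chain framework 3 did not pass at any age, with medians of 0.67, 0.64 and 0.78 at 4, 8 and 12 months.

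The oligos whose ratios followed the mean of the 6 that fell most closely over the 12 arrays were M400009424, M400001205, M400009427, M400010429 and M400010432. Pearson's r was 0.997 for the first 4 and 0.996 for the last, among 25999 oligos with a value on every array, and the arrays share a split between strains that sets such values. Their log2 fold changes at 4 months were -3.75, -2.18, -4.07, -5.02 and -5.20. M400009424 matched the pattern of the middle of framework 3, M400010429 and M400010432 that of the J segment, and the others none. Outside the 8, the longest stretch of bases that any other oligo shared with one of them was 15.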

How the data were processed

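The members and lists were chosen with earlier results of these data known. Per the labels, Cy3 marked the spleen RNA of each of the 12 samples and Cy5 the reference RNA, and dyes were never swapped. Agilent Feature Extraction 11.5.1.1 made the files, per the submitters' processing notes. The intensity columns, per the file headers, hold each spot's mean brightness and median local background without normalization. The deposited log10 ratio sets reference over sample. The values of the deposited series table equal it within 0.005, so scale and direction are known and oligos were not centred. That table's median was 0 on 11 arrays, with 0.002 on replicate 1 of 564 Igi at 4 months. Other deposited columns flag background, saturated and uneven spots. The sources used here do not give the authors' statistical test.

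Using limma 3.58.1 (R 4.3.3), normexp with an offset of 50 corrected the background. Spots of uneven background took their array's median background for that step and were then left out. Arrays were normalized by within-array loess, with control spots given no weight, and values are log2 of Cy3 over Cy5. An oligo was kept where Cy3 was well above background on all arrays of at least 1 group. That left 26290 of 35852 oligos, of which 26279 could be tested in all groups. A single fit (lmFit, eBayes) had 1 coefficient per group, with 8 residual and 3.71 prior degrees of freedom. Benjamini-Hochberg adjustment ran over all oligos tested. The fit was also run on simulated data with independent noise and no background floor or slide effect. That run does not bear on falls near background. Alternatives changed the background, scaling, filter, blocks and arrays used. Each oligo is named by identifier. Values are given on every array for all 8 oligos, and sequences for the 4 largest falls and the 2 smallest changes at 4 months. The planned cell-type markers and gene names were not analysed here.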

Additional observations from a re-analysis of the deposited data

Results flagged for a closer look

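In M400003662, the array of 564 Igi 12 months replicate 1 stood apart from the other 12-month arrays. Its log2 ratio was 0.071, and the others lay at -0.28, -0.24 and -0.25, so the gap to the nearest was 0.877 of the whole range. This was 1 of the 8 oligos, each with a single group of 4 arrays that could be looked at this way. Such a gap can arise by chance, at a rate that was not computed here. The array had a Cy3 brightness of 248 and lay on slide 1, which held no other 12-month array, at position 4, where both C57BL/6 arrays also lay. The part of the position in this value was not tested. Its value was still below both C57BL/6 arrays.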

How the results depend on the processing

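With each array left out in turn (12 fits), the number of the 8 oligos called lower than C57BL/6 stayed at 6 to 6 and the number called higher at 0 to 0 at each age, and the age comparisons and F test stayed at 0 to 0. Under the filter on both channels on all arrays, 3 of the 8 were tested and 1 was lower, at each age. At 8 months 1 oligo, M400005657, was higher with median centring (1.04), with the sample channel alone (2.36) and with the replicate number as a block (0.96, limma adjusted p = 0.0409). At 12 months 1 oligo, again M400005657, was higher with the sample channel alone (2.35). Its value turned to -0.080 at 4 months with the scanner's processed ratios and to -0.18 at 8 months with uneven spots kept. The processed ratios lost the calls of M400002441 at 4, 8 and 12 months (adjusted p = 0.261, 0.21 and 0.117) and of M400004552 at 4 months (adjusted p = 0.0659), while the falls were larger there, at -4.61, -4.36 and -4.40 for M400002441 and -3.70 for M400004552. Over all alternatives, the log2 values of the 6 oligos that fell ranged from -4.61 to -1.59 at 4 months. They ranged from -4.59 to -1.56 at 8 months and from -4.42 to -1.55 at 12 months. All are refits of the same 12 arrays, and 4 of the 6 oligos passed the filter only through C57BL/6, so these ranges are a description. Median centring moved the median of all oligos at 4 months from 0.0095 to 0.22. Of 513 age values, 78 changed sign and 0 were called. Deviations from the group means correlated at -0.23 to 0.29 between same-numbered arrays and at -0.38 to 0.30 between others. Only 4 of 12 arrays were closest to their own number. These values show no pairing by replicate number, but so few arrays cannot settle it. Arrays on the same slide correlated at a median of 0.13, and those on different slides at -0.087. With the slide or the replicate number as a block, 6 oligos were still called lower at each age. Signal near background limits 5 of the 6 falls.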
